A study of Homo sapiens with 12 samples.

Results

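The solute carriers (SLC genes) are the largest superfamily of membrane transporters, and their transcripts were followed in SK-UT-1, an established cell line of human uterine leiomyosarcoma (uLMS), after inhibition of the BET proteins. Members were gene symbols made of SLC and a number, with antisense RNAs and pseudogenes left out, and they were selected on their level, with 3 or more of the 10 libraries having to reach 10 normalized counts. Of 371 such symbols, 18 antisense or divergent transcripts and 13 pseudogenes were left out, and 243 of the remaining 340 reached the limit. These 243 members belonged to 46 SLC families and were part of 14839 gene symbols that met the same limit. Cells received the DMSO vehicle, 5 µM JQ1 or 5 µM I-BET 762, and RNA was taken after 48 h. Values were used for 3 vehicle libraries (replicates 13 to 15), 4 JQ1 libraries (17 to 20) and 3 I-BET 762 libraries (21 to 23), and the other 2 of 12 labelled libraries are not analysed here. All groups share 1 cell line, no source says whether the replicates were separate cultures, and p-values therefore measure only the spread between these libraries, which may be technical. The number of reads on genes was 35564586 to 38899935 with vehicle, 35691648 to 39658989 with JQ1 and 37733027 to 38404997 with I-BET 762.

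SLC proteins move amino acids, sugars, organic acids, nucleosides, lipids, vitamins, metals and inorganic ions across the plasma membrane and the membranes of organelles, mostly by facilitated diffusion or by coupling to an ion gradient. Proliferating tumour cells, including those of smooth muscle origin, depend on such carriers to take up glucose and glutamine and to release lactate. JQ1, a thienotriazolodiazepine, and I-BET 762, a benzotriazolodiazepine, bind the bromodomains of BET proteins, where acetylated lysines would otherwise dock, and displace these transcriptional coactivators from chromatin.

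Of 6 smooth muscle markers, 5 had values, and their summed normalized count was 17766 to 18836 with vehicle, 7933 to 8619 with JQ1 and 9189 to 9600 with I-BET 762. MYH11 is not analysed here. All 5, among them ACTA2 and TAGLN, were lower in every treated library than in every vehicle library, and their part in the SLC results was not tested. The 5 epithelial markers summed to 1212 to 1271 with vehicle, 511 to 602 with JQ1 and 497 to 544 with I-BET 762, and 4 of them were lower in every treated library. The leukocyte markers PTPRC and CD68 summed to at most 4.01 in any library, and the 3 endothelial markers to at most 7.40. In RNA from whole cultures, fewer cells of a type and less RNA per cell cannot be told apart.

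The count limit used the values of all groups, so the way in which a member passed it matters for every count below. A total of 226 members had a library at the limit in each of the 3 groups, 12 in 2 groups, and 5 (SLC2A2, SLC7A7, SLC8A2, SLC38A5 and SLC49A3) in the vehicle group alone. Those 5 could only be lower after treatment, and counts over the members describe them without supporting a direction. Members such as SLC16A6, SLC25A2 and SLC27A2 had no vehicle library at the limit and passed it through treated libraries alone. Their selection favoured a rise, and counts over them support no direction either. The symbols just outside the limit were SLC35G5, SLC35F1 and SLC44A5, whose third-highest library had 8.72, 8.86 and 9.0 normalized counts. Just inside were SLC8A2 and SLC2A9, both at 10.2, and SLC27A2 at 10.8. Among the members, 5 carry an SLC symbol without being transporters: SLC2A4RG, SLC4A1AP, SLC7A6OS, SLC9A3R1 and SLC9A3R2.

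Members summed to 1.06% to 1.12% of all normalized counts in each of the 10 libraries. Compared per kilobase of exon, a few carriers dominated in the vehicle libraries, and the first 10 held 41.5% of the summed level. SLC38A2, which brings small neutral amino acids into the cell with sodium, was first at 10013 normalized counts per kilobase. The mitochondrial ADP/ATP carrier SLC25A5 followed at 6969 per kilobase. The mitochondrial phosphate carrier SLC25A3 stood at 2309 per kilobase, and the lactate and pyruvate transporter SLC16A1 at 1985. The exon length joins the exons of all annotated transcripts, 8896 bases for SLC25A3 and 1555 for SLC25A5. A gene expressed mainly as a shorter transcript is therefore understated, and the order depends on this length. By mean normalized count with vehicle, SLC25A3 (20537) stood above SLC25A5 (10836). The median member stood at 115 per kilobase. By mean normalized count with vehicle, 92 members exceeded 1000 and 59 were under 100.

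With JQ1, 104 of the 243 members were differentially expressed genes (DEGs), which here required more than a 1.5-fold change, up or down, together with an adjusted p-value below 0.05 by limma. This was 42.8% of the members, and the share over all 14839 genes tested was 36.1%. Among them 39 were up (16.0%; 13.3% over all genes) and 65 were down (26.7%; 22.8% over all genes). I-BET 762 gave 83 DEGs, or 34.2% of the members beside 26.9% of all genes tested, with 33 up (13.6%; 8.96%) and 50 down (20.6%; 17.9%). The members' median log2 fold change was -0.06 with each inhibitor, beside 0.01 with JQ1 and 0.00 with I-BET 762 over all genes tested. It was -0.01 with each inhibitor for the 226 members with a library at the limit in each group. Libraries rescaled to equal totals moved the median of all genes by JQ1 to -0.18 and the share of SLC DEGs that fell from 62.5% to 75%. With I-BET 762 the same rescaling gave a median of -0.10 over all genes, and the falling share went from 60.2% to 70%. Among the 185 members averaging 100 normalized counts or more, the DEGs were 67 with JQ1 (31 up, 36 down) and 51 with I-BET 762 (24 up, 27 down). These were 36.2% and 27.6% of such members, beside 30.3% and 21.1% of all genes averaging as much. The median log2 fold changes of these 185 members were 0.11 with JQ1 and 0.04 with I-BET 762. Over all genes averaging as much they were 0.07 and 0.04, so the lower median of the members was not seen at these levels.

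Both inhibitors, which were compared with the same vehicle libraries, gave DEGs in the same direction for 76 members, 29 up (7.86% of all genes tested were up with both) and 47 down (16.7%). There were 0 members that were DEGs in opposite directions by limma, and 0 by limma-voom on the recovered reads, while 1 had an unadjusted p-value under 0.05 in both comparisons with opposite signs. A further 28 were DEGs with JQ1 alone (11.5% of all genes tested) and 7 with I-BET 762 alone (2.3%). That left 132 members, or 54.3%, that were DEGs with neither, beside 61.6% of all genes, while 45.7% of members and 38.4% of all genes were DEGs with at least 1 inhibitor. The JQ1 group had 4 libraries and the I-BET 762 group 3, so standard errors were smaller with JQ1. The part of this in the larger JQ1 counts was not tested. In the paper's own analysis more genes were called with I-BET 762 than with JQ1. Without the fold limit, the adjusted p-value was below 0.05 for 192 members with JQ1 (71.7% of all genes tested) and 165 with I-BET 762 (61.1%). The treated libraries did not overlap the vehicle libraries for 187 members with JQ1 (68.4% of all genes tested did not overlap) and for 185 members with I-BET 762 (71.0%).

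**Figure D1:**
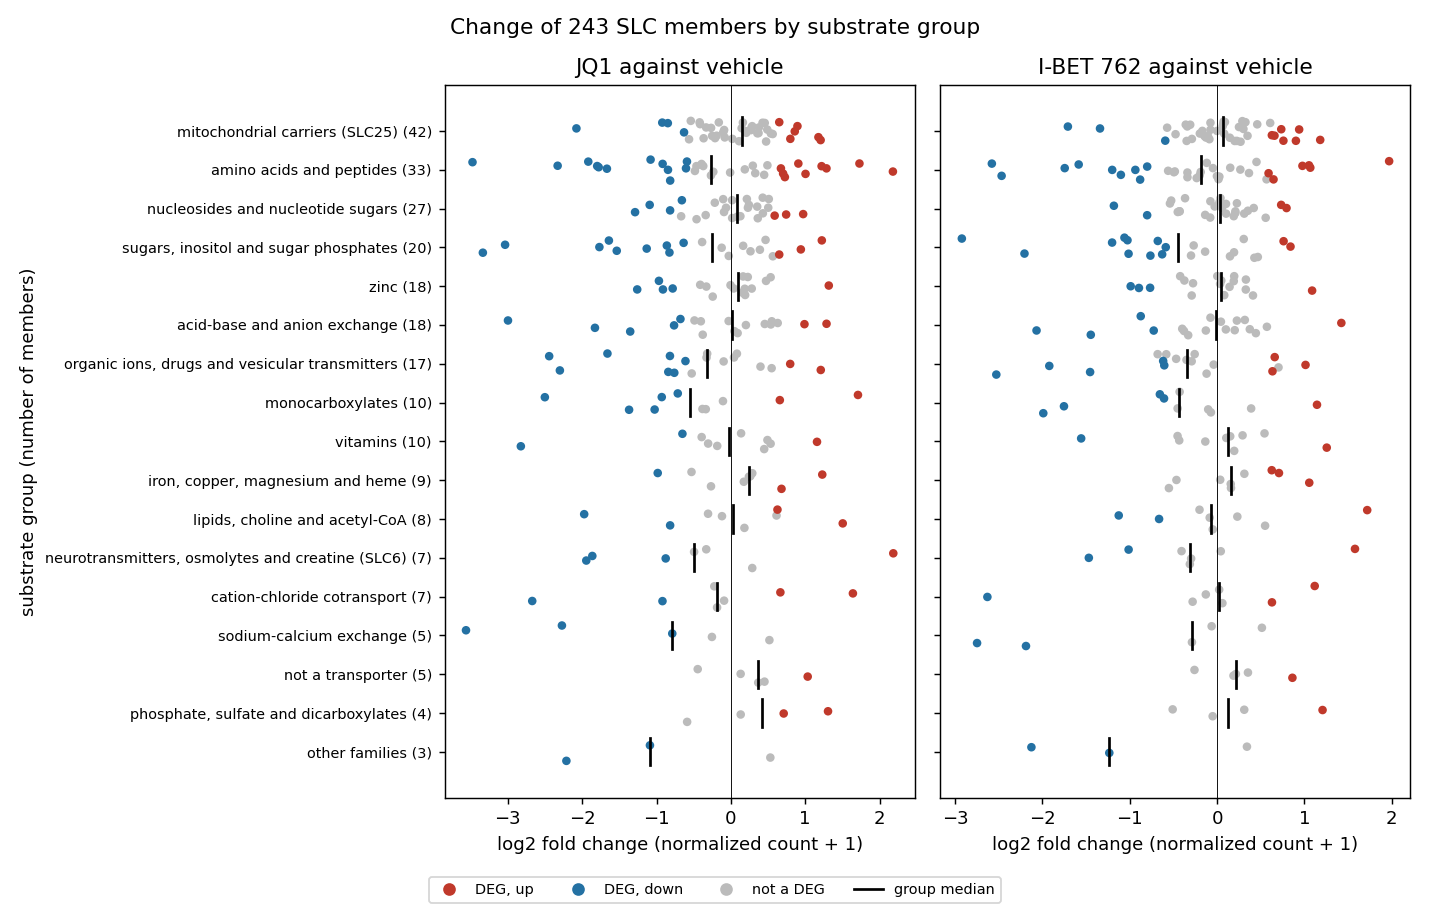
Log2 fold change of each of the 243 SLC members with JQ1 (left) and I-BET 762 (right) against vehicle, one point per gene, by the substrate group of its family; red and blue points are DEGs, grey points are not, and black bars are group medians. The amino acid and peptide group holds 9 rises and 12 falls with JQ1 (27.3% and 36.4%, beside 13.3% and 22.8% of all genes tested). DEGs of the sodium-calcium exchangers are all falls, while SLC8B1 was higher with both inhibitors, under the fold limit. Selection set the direction of SLC8A2 here, and of SLC7A7 and SLC38A5 in the amino acid group, which reached the count limit with vehicle alone.

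The 10 largest rises shared by both inhibitors, ranked by the smaller of the 2 log2 fold changes, were SLC15A2, SLC6A8, SLC44A1, SLC9A2, SLC13A3, SLC19A3, SLC16A6, SLC12A2, SLC30A3 and SLC41A2. The creatine transporter SLC6A8 (chrX:153687926-153696588) had normalized counts of 431, 422 and 430.4 in the vehicle libraries, 1966, 1764, 1939.8 and 2142 in the JQ1 libraries and 1279, 1206 and 1359 in the I-BET 762 libraries. The 3 groups did not overlap at any point. SLC6A8 was 4.55-fold higher with JQ1 (log2 2.19, SE 0.07, adjusted p = 2.13e-13) and 2.99-fold higher with I-BET 762 (adjusted p = 5.7e-11).

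SLC44A1 (chr9:105244622-105439171), which carries choline for phospholipid synthesis, had normalized counts of 421, 484 and 475 in the vehicle libraries, 1193, 1406, 1339.6 and 1290.1 in the JQ1 libraries and 1458, 1555 and 1531 in the I-BET 762 libraries. Every treated library lay far above the vehicle libraries, and the I-BET 762 libraries were the highest. The rise was 2.84-fold with JQ1 and 3.29-fold with I-BET 762 (adjusted p = 1.84e-11 and 2.9e-11, limma). SLC12A2 (chr5:128083766-128189677), the sodium-potassium-chloride cotransporter NKCC1 that loads cells with chloride and regulates their volume, had counts of 1586, 1679.8 and 1715 in the vehicle libraries, 5219, 5315, 5187 and 5006 in the JQ1 libraries and 3525, 3567 and 3724 in the I-BET 762 libraries. Its 3 groups were separate, with JQ1 the highest, 3.12-fold above vehicle, and I-BET 762 2.17-fold above vehicle (adjusted p = 8.48e-14 and 4.33e-11).

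SLC15A2, a proton-coupled importer of di- and tripeptides, rose from a low level, with normalized counts of 18.4, 12.9 and 4.55 in the vehicle libraries, 45.1, 52.2, 61 and 46.7 in the JQ1 libraries and 39.4, 41.1 and 52.2 in the I-BET 762 libraries. No treated library reached down to the highest vehicle library, although the vehicle libraries differed among themselves by several fold. On the log2 scale the differences were 2.18 (SE 0.33) with JQ1 and 1.97 (SE 0.35) with I-BET 762. SLC13A3, which takes up succinate and other dicarboxylates with sodium, rose 2.47-fold and 2.31-fold. The thiamine transporter SLC19A3 rose 2.23-fold and 2.39-fold, and the sodium-proton exchanger SLC9A2 2.44-fold and 2.68-fold. The magnesium transporter SLC41A2 and the zinc transporter SLC30A3, known for loading zinc into synaptic vesicles, rose 2.35-fold and 2.49-fold with JQ1 and 2.08-fold and 2.13-fold with I-BET 762. SLC16A6, a monocarboxylate family member, had a vehicle mean of 5.94 and reached the count limit in treated libraries alone, which favoured a rise. Its call with I-BET 762 was lost when vehicle replicate 14 or I-BET 762 replicate 21 was left out (adjusted p = 0.0605 and 0.0659).

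The 10 largest shared falls were SLC2A2, SLC8A1, SLC12A8, SLC15A3, SLC22A15, SLC37A1, SLC8A2, SLC49A3, SLC4A10 and SLC16A14. Among these, SLC2A2, SLC8A2 and SLC49A3 reached the count limit with vehicle alone, so the selection set their direction and their rank supports no fall. SLC12A8 reached the limit in the vehicle libraries and in 1 I-BET 762 library. SLC4A10 (chr2:161424332-161985282), a sodium-driven bicarbonate transporter best known from neurons, went from moderate to low levels, with normalized counts of 657, 721 and 729.8 in the vehicle libraries, 73.6, 109, 89 and 80.1 in the JQ1 libraries and 167, 179 and 155 in the I-BET 762 libraries. Vehicle, I-BET 762 and JQ1 libraries formed 3 separate steps. It was 7.99-fold lower with JQ1 (log2 -3.0, SE 0.12, adjusted p = 6.19e-12) and 4.19-fold lower with I-BET 762 (adjusted p = 2.83e-09).

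SLC15A3 (chr11:60937060-60952653), a lysosomal exporter of histidine and peptides, had counts of 416, 407 and 439.5 in the vehicle libraries, 48.3, 30.5, 31 and 40.6 in the JQ1 libraries and 75.8, 68.2 and 82.7 in the I-BET 762 libraries. It showed the same order of groups, 11.1-fold and 5.53-fold below vehicle (adjusted p = 2.46e-11 and 7.5e-09, limma). SLC15A2 and SLC15A3, of a single family, thus stood at opposite ends of the list, the plasma membrane member rising and the lysosomal member falling.

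The sodium-calcium exchanger SLC8A1 (NCX1), which extrudes calcium from muscle cells, had normalized counts of 98.8, 85.1 and 131 in the vehicle libraries, 7.69, 7.62, 15 and 4.06 in the JQ1 libraries and 23.6, 13 and 9.84 in the I-BET 762 libraries. All treated libraries were far below the lowest vehicle library, and the JQ1 and I-BET 762 libraries overlapped each other. The log2 difference was -3.56 (SE 0.37) with JQ1 and -2.75 (SE 0.39) with I-BET 762. SLC37A1, which exchanges glucose 6-phosphate for phosphate, had counts of 119, 124 and 128 in the vehicle libraries, 23.1, 10.9, 22 and 7.1 in the JQ1 libraries and 26.6, 25.1 and 26.6 in the I-BET 762 libraries. Its vehicle libraries were tightly grouped and its JQ1 libraries were spread out, all of them below the I-BET 762 libraries. SLC16A14, an orphan of the monocarboxylate family, fell from 55.2, 56.4 and 61.9 with vehicle to 8.79, 15.2, 17 and 3.04 with JQ1 and 12.8, 16 and 12.8 with I-BET 762.

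The remaining shared falls among these 10 had mean normalized counts of 14.8 (SLC8A2) to 30.8 (SLC2A2) with vehicle, and their fold changes rest on few reads. The liver and pancreatic glucose transporter SLC2A2 went from 29.1, 38.8 and 24.6 to 4.4, 3.26, 3.0 and 0 with JQ1 and to 1.97, 2.01 and 6.89 with I-BET 762. The second calcium exchanger of the SLC8 family, SLC8A2, went from 22.3, 10.2 and 11.8 to 2.2, 2.18, 8.0 and 0 and 0.984, 2.01 and 4.92, and its call with I-BET 762 was lost without vehicle replicate 13 or I-BET 762 replicate 21 (adjusted p = 0.0664 and 0.0609). SLC22A15, SLC12A8 and SLC49A3 had vehicle counts of 18.4 to 34.6 and treated counts of 0.984 to 14. All of these members have a treated library at or under 3 reads, the number that a count of 0 would still allow, which covers counting error only.

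**Figure D2:**
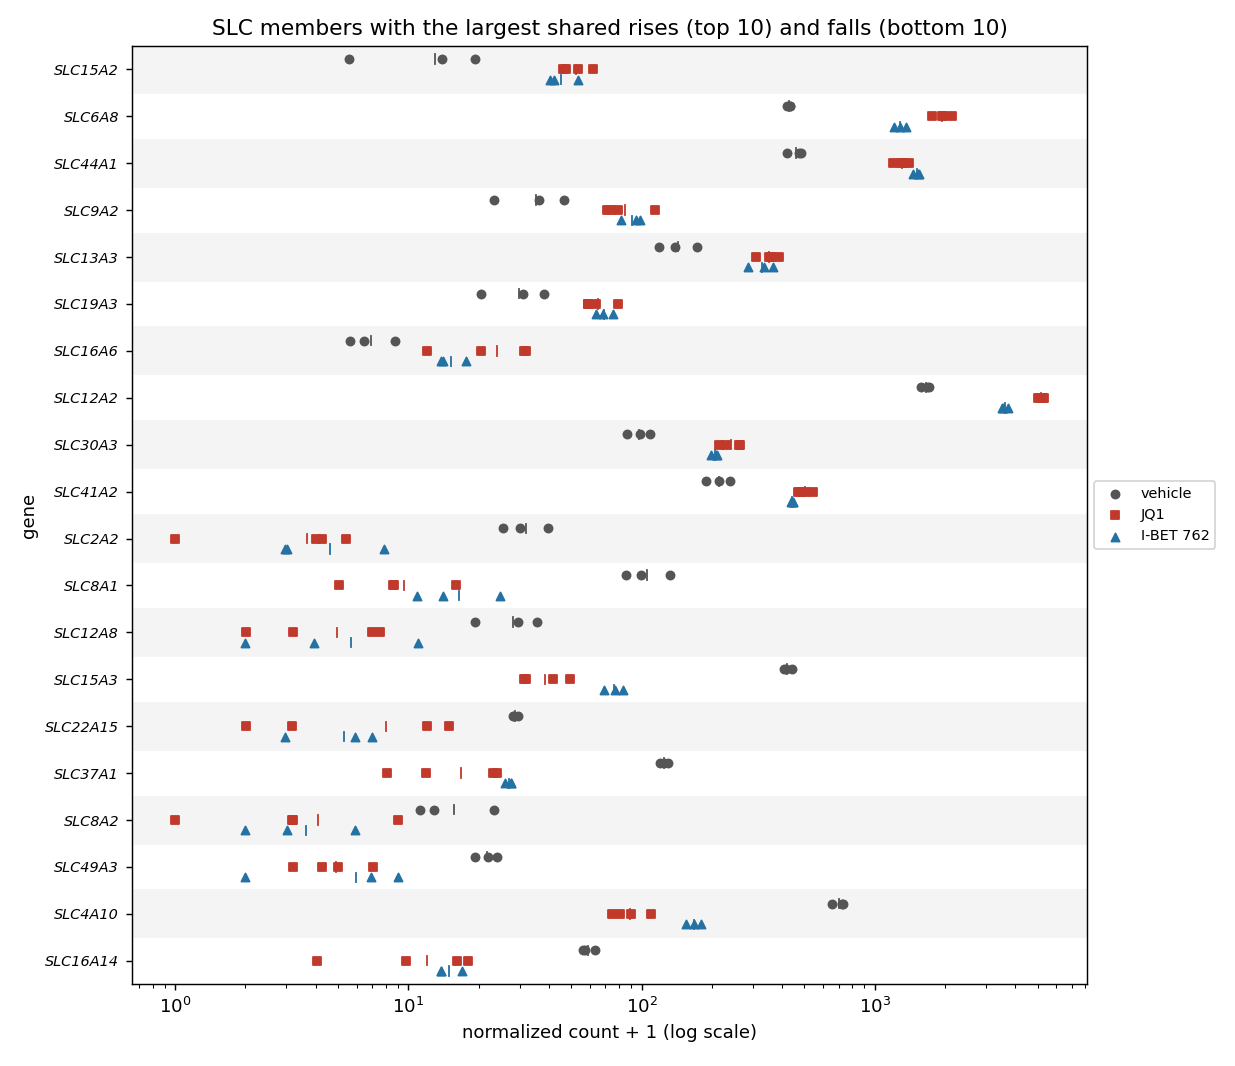
Normalized count plus 1 (log scale) of the 10 largest shared rises (top) and the 10 largest shared falls (bottom), one symbol per library with small bars at group means; circles are the 3 vehicle, squares the 4 JQ1 and triangles the 3 I-BET 762 libraries. In every row all treated libraries lie on one side of the vehicle libraries, and SLC6A8, SLC12A2, SLC4A10 and SLC15A3 show JQ1 beyond I-BET 762.

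The promoters of the first 3 shared rises and the first 3 shared falls are shown, since these members head the lists. Of these falls, SLC2A2 reached the count limit with vehicle alone, and SLC12A8 with vehicle and in 1 I-BET 762 library. Their places in the list therefore support no fall. Each is the 250 bases before the start of the RefSeq gene on GRCh38.p14, from 5′ to 3′ on the gene's strand, with capitals for GC boxes (GGGCGG or its complement CCGCCC), for TATA motifs (TATAAA or TTTATA) and for CCAAT boxes (CCAAT or ATTGG). Those of SLC15A2 (chr3:121894151-121894400, plus strand), SLC6A8 (chrX:153687676-153687925, plus strand) and SLC44A1 (chr9:105244401-105244650, plus strand) hold 39.6%, 76.4% and 77.6% G and C.
SLC15A2: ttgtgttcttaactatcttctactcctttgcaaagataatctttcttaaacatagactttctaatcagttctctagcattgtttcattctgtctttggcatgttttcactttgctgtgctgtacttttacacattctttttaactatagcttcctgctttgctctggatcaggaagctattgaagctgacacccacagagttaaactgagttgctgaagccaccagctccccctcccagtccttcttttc
SLC6A8: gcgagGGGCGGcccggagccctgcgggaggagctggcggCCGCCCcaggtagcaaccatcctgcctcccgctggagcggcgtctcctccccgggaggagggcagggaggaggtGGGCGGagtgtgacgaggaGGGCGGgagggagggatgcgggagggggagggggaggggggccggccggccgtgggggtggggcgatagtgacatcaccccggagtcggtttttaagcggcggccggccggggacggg
SLC44A1: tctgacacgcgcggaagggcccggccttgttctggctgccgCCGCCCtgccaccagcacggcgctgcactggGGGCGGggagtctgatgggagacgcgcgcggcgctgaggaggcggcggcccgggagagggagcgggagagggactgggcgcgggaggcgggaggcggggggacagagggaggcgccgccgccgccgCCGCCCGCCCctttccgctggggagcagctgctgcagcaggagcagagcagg
The capitals in SLC6A8 and SLC44A1 are all GC boxes, and SLC15A2 holds none of these motifs. Those of SLC2A2 (chr3:171026721-171026970), SLC8A1 (chr2:40512436-40512685) and SLC12A8 (chr3:125211400-125211649), all on the minus strand, hold 48.8%, 44.8% and 54.0% G and C, and the last 2 lie inside longer Gencode genes.
SLC2A2: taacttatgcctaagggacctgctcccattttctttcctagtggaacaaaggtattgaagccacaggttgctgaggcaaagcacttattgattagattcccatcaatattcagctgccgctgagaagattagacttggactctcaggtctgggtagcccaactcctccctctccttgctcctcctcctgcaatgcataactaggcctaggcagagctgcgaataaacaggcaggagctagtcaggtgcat
SLC8A1: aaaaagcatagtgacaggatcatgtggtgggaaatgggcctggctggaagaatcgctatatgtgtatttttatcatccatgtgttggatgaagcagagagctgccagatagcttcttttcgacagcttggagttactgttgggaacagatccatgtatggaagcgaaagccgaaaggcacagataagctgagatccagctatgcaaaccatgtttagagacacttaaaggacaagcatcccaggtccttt
SLC12A8: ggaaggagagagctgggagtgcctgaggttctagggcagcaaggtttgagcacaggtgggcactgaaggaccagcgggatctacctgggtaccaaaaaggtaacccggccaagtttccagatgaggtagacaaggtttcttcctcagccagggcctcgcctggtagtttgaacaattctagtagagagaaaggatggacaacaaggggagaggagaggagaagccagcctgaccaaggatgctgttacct
These 3 hold none of the motifs. Over the 10 largest rises and the 10 largest falls the share of G and C ran from 39.6% to 79.6% in 8 matched promoters and from 44.8% to 75.6% in 9.

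RefSeq promoters were matched for 195 of the 243 members. Their median content of G and C was 66.0%, beside 58.0% in all 27305 promoters of the table. It was 70.8% in 24 matched members that rose with both inhibitors, 60.8% in 38 that fell with both and 68.4% in 107 that were DEGs with neither. A GC box was present in 70.8%, 57.9% and 73.8% of these sets and in 42.3% of all promoters. CCAAT boxes were present in 29.2%, 15.8% and 44.9%, beside 33% of all promoters. TATA motifs were present in 0 of 24, in 13.2% and in 4.67%, beside 11.1% of all promoters. The E-box CACGTG was present in 8.33%, 13.2% and 11.2%, beside 6.49% of all promoters, and TGATGNAA, searched on both strands, in 0 of 24, in 2.63% and in 4.67%, beside 3.19%. These shares are descriptions of the letters in the windows, with no test.

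Amino acid and peptide carriers, 33 members, moved in both directions. With JQ1 9 rose (27.3%) and 12 fell (36.4%), and with I-BET 762 6 rose (18.2%) and 9 fell (27.3%). The falls with each inhibitor include SLC7A7 and SLC38A5, which reached the count limit with vehicle alone, so the selection set their direction. Over all genes tested, 13.3% rose and 22.8% fell with JQ1, and 8.96% and 17.9% with I-BET 762. The shares of the groups below stand beside these, and no group was tested against them. Median log2 fold changes of the amino acid and peptide carriers were -0.27 and -0.19. The cystine-glutamate exchanger SLC7A11 (xCT), which supplies cysteine for glutathione, had normalized counts of 2633, 2594 and 2645 in the vehicle libraries, 872, 829, 819 and 783 in the JQ1 libraries and 856, 841 and 929 in the I-BET 762 libraries. The vehicle libraries stood far above all treated libraries, whose JQ1 and I-BET 762 values overlapped. It was 3.18-fold lower with JQ1 and 3.0-fold lower with I-BET 762 (adjusted p = 6.56e-13 and 9e-12, limma).

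The large neutral amino acid transporter SLC7A5 (LAT1), which imports leucine, had counts of 3596, 3053 and 3076 in the vehicle libraries, 5381, 4340.1, 5509 and 5956 in the JQ1 libraries and 3903, 3799 and 3967 in the I-BET 762 libraries. JQ1 libraries were all above the I-BET 762 libraries, and these were all above the vehicle libraries. The rise with JQ1 was 1.63-fold (adjusted p = 1.82e-06), but it went under 1.5-fold when library totals were made equal (log2 0.52). With I-BET 762 the difference was 0.27 on the log2 scale (adjusted p = 0.0186), within the fold limit. SLC3A2 (CD98hc), the heavy chain that carries both SLC7A5 and SLC7A11 to the membrane, had counts of 5515, 5441 and 5139 with vehicle, 6672, 6318, 6916 and 7044 with JQ1 and 5263, 5259 and 5555 with I-BET 762. The heavy chain differed by 0.33 with JQ1 (log2, adjusted p = 1.72e-05, limma) and by less than its standard error with I-BET 762. Among its light chains, SLC7A5 and SLC7A11 moved apart.

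The 2 major sodium-coupled importers of glutamine and alanine in these cells also parted. SLC38A1 had normalized counts of 16893, 17745 and 17468 in the vehicle libraries, 9658, 10278, 9587 and 9152 in the JQ1 libraries and 9916, 9961 and 10052 in the I-BET 762 libraries. It was 1.8-fold and 1.74-fold lower, and no treated library came near the vehicle libraries. SLC38A2, the member with the highest level, had counts of 63298, 66741 and 65486 in the vehicle libraries, 71453, 80030.3, 73280.3 and 72422 in the JQ1 libraries and 66649.9, 65002 and 66101 in the I-BET 762 libraries. JQ1 libraries were above the vehicle libraries by 0.19 (log2, adjusted p = 0.00613), and I-BET 762 libraries overlapped them (log2 0.02, 95% interval -0.11 to 0.14). The glutamine transporter SLC1A5 (ASCT2) differed by 0.49 with JQ1 and 0.15 with I-BET 762 on the log2 scale, neither of which passed the fold limit. Its exons overlap by 23.4% with a noncoding gene on the other strand, and the strand setting of the counting is not given in the sources used here.

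SLC66A3, a PQ-loop protein related to the lysosomal cystine exporter, rose 2.33-fold with JQ1 and 1.51-fold with I-BET 762, the latter close to the limit and lost without vehicle replicate 15 or I-BET 762 replicate 21 and with equal library totals or upper quartiles. SLC38A9, the lysosomal arginine sensor of the mTORC1 pathway, fell with JQ1 (log2 -0.82). Its level per kilobase was 92.1 with vehicle, 52.3 with JQ1 and 62.3 with I-BET 762, which was also below vehicle. SLC38A7, a lysosomal glutamine exporter, fell with both (log2 -1.08 and -0.94). The cationic amino acid transporter SLC7A1 fell 1.51-fold with JQ1, a call that was lost without vehicle replicate 13, JQ1 replicate 17 or JQ1 replicate 18. SLC38A5 had 15.5, 14.8 and 18.2 normalized counts with vehicle, 5.49, 3.26, 4.0 and 2.03 with JQ1 and 1.97, 1.0 and 2.95 with I-BET 762, at most 3 reads in each I-BET 762 library.

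Among 20 carriers of sugars, inositol and sugar phosphates, 3 rose (15%) and 9 fell (45%) with JQ1. I-BET 762 gave 2 rises (10%) and 10 falls (50%), and the median log2 fold changes were -0.25 and -0.44. The falls with each inhibitor include SLC2A2, which reached the count limit with vehicle alone, so the selection set its direction. SLC5A3 (SMIT1), the sodium-myo-inositol cotransporter that responds to osmotic stress, was the most abundant by count, with 6571, 6711 and 6242 in the vehicle libraries, 11913, 12987, 12655 and 12444 in the JQ1 libraries and 10996, 10754 and 11356 in the I-BET 762 libraries. It rose 1.92-fold and 1.7-fold (adjusted p = 4.08e-11 and 2.88e-09, limma), and the proton-coupled inositol carrier SLC2A13 rose 2.34-fold and 1.79-fold. Both inositol carriers thus moved up in all 7 treated libraries.

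Glucose transporters did not move together. SLC2A1 (GLUT1), the widespread basal glucose transporter, had counts of 1394, 1296 and 1448 in the vehicle libraries, 1927, 1719, 1922 and 2066 in the JQ1 libraries and 1543, 1564 and 1625 in the I-BET 762 libraries. Every treated library exceeded every vehicle library, by 0.47 with JQ1 and 0.19 with I-BET 762 on the log2 scale (adjusted p = 5.87e-06 and 0.0198), short of 1.5-fold. SLC2A3 (GLUT3), a high-affinity glucose transporter, had counts of 2609, 2623 and 2665 in the vehicle libraries, 2442, 2505, 2283 and 2440.3 in the JQ1 libraries and 1745, 1729 and 1782 in the I-BET 762 libraries. Its I-BET 762 libraries were the lowest group, at 1.5-fold below vehicle, and JQ1 differed by -0.12. The call with I-BET 762 lay at the limit and was lost without vehicle replicate 15 or I-BET 762 replicate 21 or 22, and 12.1% of the 75-base stretches of SLC2A3 also occur in its paralog SLC2A14.

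Among less abundant sugar carriers, SLC2A12 had counts of 534, 562 and 522 in the vehicle libraries, 170.3, 174, 173 and 171 in the JQ1 libraries and 272, 265 and 264 in the I-BET 762 libraries. Its groups were separate and tight, 3.12-fold and 2.02-fold below vehicle, and 51.2% of its exon sequence lies opposite TBPL1. The insulin-responsive transporter SLC2A4 (GLUT4) fell, with a vehicle mean of 63.2 ± 5.15 (SD, n = 3), a JQ1 mean of 22 ± 7.27 (SD, n = 4) and an I-BET 762 mean of 30.7 ± 4.3 (SD, n = 3). SLC37A4, which brings glucose 6-phosphate into the endoplasmic reticulum, fell 2.19-fold and 1.7-fold, and 13.3% of its exon sequence lies opposite TRAPPC4.

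Monocarboxylate carriers of the SLC16 family, 10 members, gave 2 rises (20%) and 5 falls (50%) with JQ1. I-BET 762 gave 1 rise (10%) and 4 falls (40%), and the median log2 fold changes were -0.55 and -0.44. The rises with each inhibitor include SLC16A6, which reached the count limit in treated libraries alone. SLC16A1 (MCT1), which moves lactate, pyruvate and ketone bodies with protons, had counts of 11964, 13261 and 12576 in the vehicle libraries, 18934, 22424, 19684 and 18669 in the JQ1 libraries and 16616, 16555 and 16344 in the I-BET 762 libraries. The groups were ordered vehicle, I-BET 762, JQ1 without overlap. The rise with JQ1 was 1.58-fold (adjusted p = 6.73e-08), and with equal library totals it was under 1.5-fold (log2 0.47). With I-BET 762 it was 1.31-fold (adjusted p = 7.32e-05), under the fold limit. SLC16A3 (MCT4), the lactate exporter of glycolytic cells, had counts of 431, 432 and 437 in the vehicle libraries, 496, 294, 482 and 373 in the JQ1 libraries and 266, 275 and 284 in the I-BET 762 libraries. I-BET 762 libraries were all below the vehicle libraries (1.57-fold lower, adjusted p = 0.00119), whereas the JQ1 libraries lay on both sides of them.

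SLC16A9, linked to carnitine efflux, went from 56.2, 49.9 and 47.3 with vehicle to 19.8, 20.7, 19 and 17.2 with JQ1 and 13.8, 20.1 and 10.8 with I-BET 762. BSG (basigin), the chaperone that brings SLC16A1 and SLC16A3 to the membrane and is not an SLC gene, had a vehicle mean of 14207 ± 183 (SD, n = 3), a JQ1 mean of 25086 ± 1656 (SD, n = 4) and an I-BET 762 mean of 19992 ± 493 (SD, n = 3). It rose 1.76-fold with JQ1 (adjusted p = 1.05e-09) and was 1.41-fold higher with I-BET 762, under the fold limit.

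**Figure D3:**
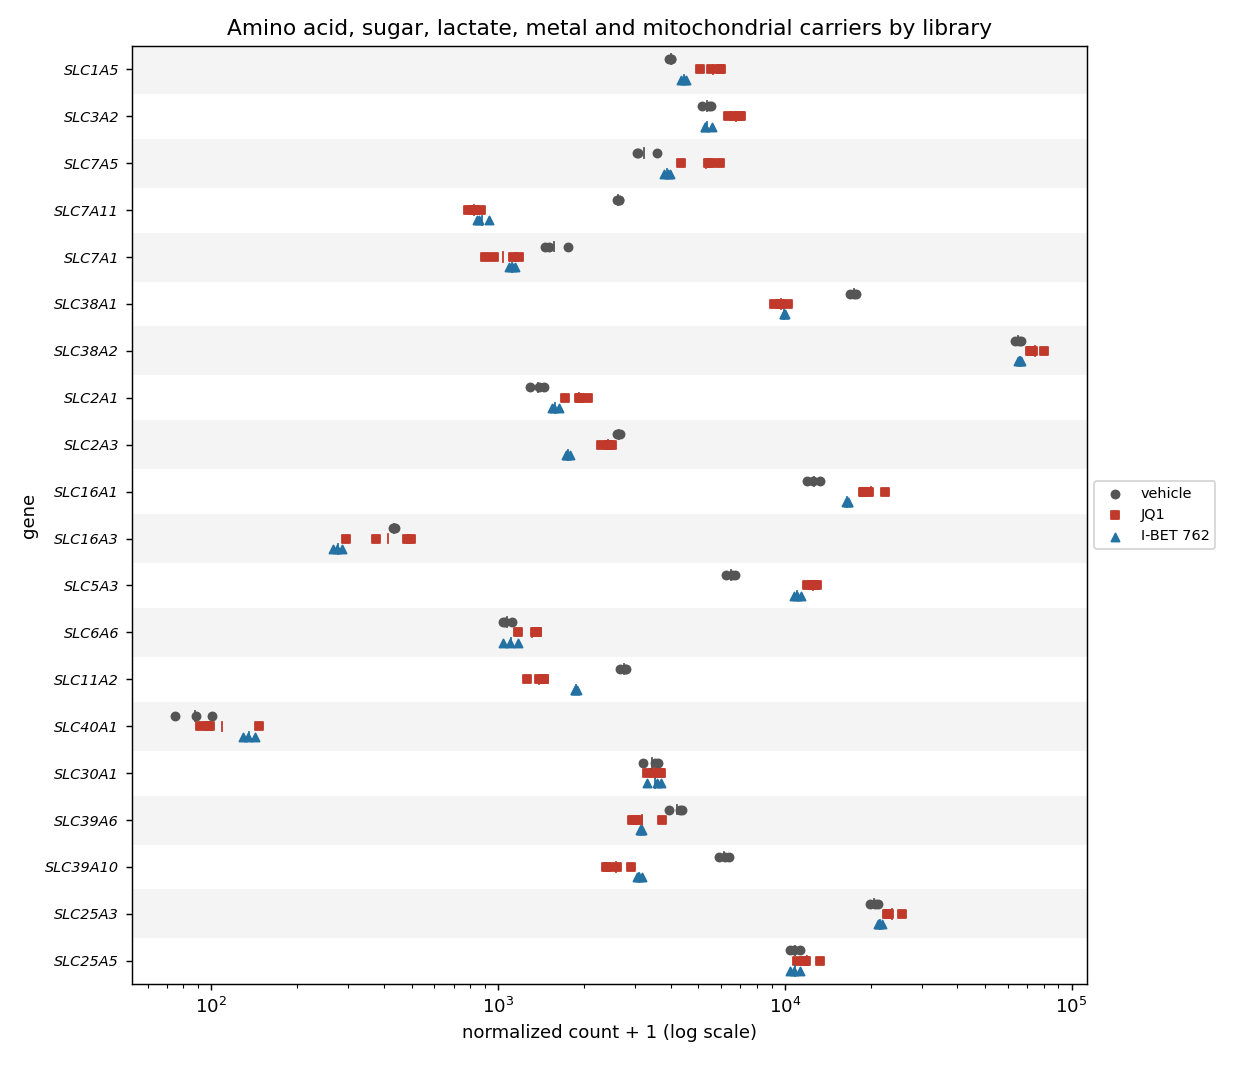
Normalized count plus 1 (log scale) of 20 amino acid, sugar, lactate, osmolyte, metal and mitochondrial carriers, one symbol per library with small bars at group means; circles are vehicle, squares JQ1 and triangles I-BET 762. SLC7A11, SLC38A1 and SLC39A10 separate from vehicle to the left with both inhibitors, SLC5A3 and SLC16A1 to the right, and SLC30A1 overlaps in all groups.

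Zinc carriers, 18 members, comprise the SLC39 (ZIP) importers into the cytosol and the SLC30 (ZnT) exporters from it. The DEGs among 10 SLC39 members were falls, 4 with JQ1 (40%) and 3 with I-BET 762 (30%). The DEG among 8 SLC30 members was 1 rise with each inhibitor (12.5%), that of SLC30A3. The difference between these families was not tested. SLC39A10 had normalized counts of 5908, 6388 and 6189 in the vehicle libraries, 2422, 2918, 2590.1 and 2389 in the JQ1 libraries and 3170.4, 3095 and 3046 in the I-BET 762 libraries. It was 2.39-fold and 1.98-fold lower (adjusted p = 4.52e-11 and 4.55e-09, limma), with 3 separate groups. SLC39A8, which also carries manganese and iron, had counts of 2818, 3082 and 3082 in the vehicle libraries, 1445, 1698, 1522 and 1465 in the JQ1 libraries and 1543, 1663 and 1624 in the I-BET 762 libraries. Its JQ1 and I-BET 762 libraries overlapped each other and lay well under the vehicle libraries, 1.96-fold and 1.86-fold lower. SLC39A6 differed by -0.41 and -0.42 on the log2 scale, within the fold limit.

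The main plasma membrane zinc exporter SLC30A1, whose transcription follows cellular zinc, had counts of 3216, 3602 and 3530 in the vehicle libraries, 3471, 3711, 3668 and 3318 in the JQ1 libraries and 3308, 3586 and 3709 in the I-BET 762 libraries. All 3 groups overlapped, and the log2 differences were 0.04 with JQ1 (95% interval -0.08 to 0.16) and 0.04 with I-BET 762 (-0.10 to 0.17). Calls of SLC39A1 with JQ1 are uncertain, since 69.4% of its stretches also occur in another annotated gene.

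Iron, copper, magnesium and heme carriers, 9 members, gave 2 rises (22.2%) and 1 fall (11.1%) with JQ1 and 3 rises (33.3%) with I-BET 762. SLC11A2 (DMT1), which brings ferrous iron into the cytosol, had normalized counts of 2665, 2786 and 2766 in the vehicle libraries, 1388, 1443, 1267 and 1448 in the JQ1 libraries and 1862, 1861 and 1885 in the I-BET 762 libraries. Its groups were separate, with a 1.98-fold fall with JQ1 (adjusted p = 1.57e-10) and a 1.47-fold difference with I-BET 762 that did not pass the fold limit. SLC40A1 (ferroportin), the iron exporter, had counts of 99.8, 74 and 87.4 in the vehicle libraries, 96.7, 146, 98 and 90.3 in the JQ1 libraries and 141, 133 and 128 in the I-BET 762 libraries. I-BET 762 libraries exceeded the vehicle libraries (1.54-fold, adjusted p = 0.00577), a call that was lost without vehicle replicate 14 and with equal library totals, and JQ1 libraries overlapped vehicle. The heme transporter SLC48A1 rose with both (1.6-fold and 1.63-fold), and the copper importer SLC31A1 differed by 0.24 and 0.16.

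Ion exchangers and cotransporters included 18 acid-base and anion exchangers, with 2 rises (11.1%) and 5 falls (27.8%) with JQ1. I-BET 762 gave 1 rise (5.56%) and 4 falls (22.2%) among these exchangers. The sodium-bicarbonate cotransporter SLC4A7 had the highest counts of this group and differed by 0.55 and 0.38 on the log2 scale, under the fold limit. The anion exchanger SLC4A2 differed by -0.03 (95% interval -0.13 to 0.07) and 0.04 (-0.06 to 0.15), with overlapping libraries. Its family member SLC4A3 fell 3.55-fold and 2.72-fold. The sodium-proton antiporter SLC9B2 fell 1.6-fold and 1.65-fold. Of 7 cation-chloride cotransporters, the potassium-chloride cotransporter SLC12A4 (KCC1) rose beside SLC12A2, by 1.59-fold and 1.55-fold. Of 5 sodium-calcium exchangers, 3 fell with JQ1 (60%) and 2 with I-BET 762 (40%). Both counts include SLC8A2, which reached the count limit with vehicle alone, so the selection set its direction. SLC8B1, of the same group, was higher by 0.52 with JQ1 and 0.51 with I-BET 762 on the log2 scale, under the fold limit. Its adjusted p-values by limma were 9.09e-06 and 3.24e-05.

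Mitochondrial carriers of the SLC25 family, 42 of 48 candidates, were the largest group. With each inhibitor 23.8% of them were DEGs, beside 36.1% of all genes tested with JQ1 and 26.9% with I-BET 762. With JQ1 6 rose and 4 fell, and with I-BET 762 7 rose and 3 fell (median log2 0.15 and 0.07). The citrate carrier SLC25A1, which exports citrate for lipid synthesis, had counts of 2551, 2727 and 2726 in the vehicle libraries, 5423, 4161, 5235 and 4647 in the JQ1 libraries and 4616, 4435 and 4277 in the I-BET 762 libraries. All treated libraries were above the vehicle libraries, 1.81-fold and 1.66-fold on average (adjusted p = 3.19e-08 and 8.2e-07, limma). SLC25A4 (ANT1), the ADP/ATP carrier of heart and skeletal muscle, had counts of 656, 741 and 706 in the vehicle libraries, 1647, 1597, 1586 and 1515 in the JQ1 libraries and 1150.3, 1235 and 1175 in the I-BET 762 libraries. Its groups were separate, with rises of 2.26-fold and 1.69-fold.

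The abundant ADP/ATP carrier SLC25A5 (ANT2) and the phosphate carrier SLC25A3 stayed within the fold limit. SLC25A5 differed by 0.14 with JQ1 (adjusted p = 0.0373) and 0.00 with I-BET 762, and SLC25A3 by 0.20 and 0.06, on the log2 scale. With equal library totals the sign turned for SLC25A5 with JQ1 and for SLC25A3 with I-BET 762. SLC25A6, the ADP/ATP carrier of the pseudoautosomal region, was listed at only 13.9 to 30.1, and this level is uncertain because every 75-base stretch of it also occurs in its Y copy.

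The mitochondrial glutamate carrier SLC25A22 rose 1.74-fold and 1.55-fold. SLC25A43, a carrier without an established substrate, had counts of 855, 944 and 951 in the vehicle libraries, 196, 219.8, 213 and 238 in the JQ1 libraries and 272, 301 and 268 in the I-BET 762 libraries. It fell 4.22-fold and 3.27-fold, with 3 separate groups. The other SLC25 member that fell with both, the aspartate-glutamate carrier SLC25A12 of the malate-aspartate shuttle, fell 1.8-fold and 1.51-fold. SLC25A32 was called up with JQ1, but its libraries (196, 77.2, 195 and 99.4) fell into a high and a low pair, and 86.8% of its stretches also occur in another gene.

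Organic ion, drug and vesicular transmitter carriers, 17 members, gave 2 rises (11.8%) and 7 falls (41.2%) with JQ1. I-BET 762 gave 3 rises (17.6%) and 5 falls (29.4%). The neighbouring carnitine and ergothioneine transporters of chromosome 5 moved in opposite directions. SLC22A5 (OCTN2), which imports carnitine for fatty acid oxidation, had counts of 465, 409.6 and 467 in the vehicle libraries, 83.5, 77.2, 80.04 and 84.2 in the JQ1 libraries and 118, 129 and 105 in the I-BET 762 libraries. It was 5.44-fold and 3.79-fold lower (adjusted p = 1.67e-11 and 1.64e-09, limma), with 3 separate groups. SLC22A4 (OCTN1), the ergothioneine transporter, had counts of 82.3, 83.2 and 90.1 in the vehicle libraries, 136, 124, 188 and 154 in the JQ1 libraries and 129.9, 125 and 144 in the I-BET 762 libraries. All of its treated libraries were above the vehicle libraries, 1.74-fold and 1.55-fold. SLC22A17, a lipocalin receptor whose mean count over all 10 libraries, though not with vehicle alone, was the highest of the group, rose 2.31-fold and 2.02-fold, and SLC10A7 fell 3.16-fold and 2.74-fold.

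Besides SLC6A8, the 7 SLC6 members included the glycine transporter SLC6A9, with counts of 537, 468 and 483 in the vehicle libraries, 151, 114, 107 and 145 in the JQ1 libraries and 180.1, 158 and 199 in the I-BET 762 libraries. It was 3.85-fold and 2.77-fold lower, and all treated libraries were far under the vehicle libraries. The taurine transporter SLC6A6 differed by 0.29 with JQ1 (adjusted p = 0.00117) and 0.04 with I-BET 762 on the log2 scale. The betaine transporter SLC6A12 went from 37.8, 37.9 and 34.6 with vehicle to 11, 10.9, 9.0 and 7.1 with JQ1 and 14.8, 27.1 and 13.8 with I-BET 762.

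Nucleoside and nucleotide sugar carriers, 27 members, gave 3 rises (11.1%) and 4 falls (14.8%) with JQ1. I-BET 762 gave 2 rises and 2 falls (7.41% each). The equilibrative nucleoside transporters parted, since SLC29A2 fell 2.44-fold and 1.74-fold while SLC29A1 differed by 0.24 and 0.21 on the log2 scale. In the Golgi, the GDP-fucose carrier SLC35C1 fell 2.13-fold and 2.27-fold. SLC35A5 rose 1.67-fold and 1.74-fold, and SLC35A1, the CMP-sialic acid carrier, was called up with both, although 54.2% of its stretches also occur in another gene. The ATP carrier of the endoplasmic reticulum, SLC35B1, differed by -0.06 (95% interval -0.20 to 0.07) and -0.08 (-0.22 to 0.07).

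Vitamin carriers, 10 members, gave 1 rise (10%) and 2 falls (20%) with JQ1 and 1 rise and 1 fall (10% each) with I-BET 762. The reduced folate carrier SLC19A1, which also takes up methotrexate, had counts of 556, 573 and 507 in the vehicle libraries, 375, 296, 376 and 345 in the JQ1 libraries and 393, 373 and 430.2 in the I-BET 762 libraries. It fell 1.57-fold with JQ1 (log2 -0.58 without JQ1 replicate 18, under the limit) and was 1.37-fold lower with I-BET 762, under the fold limit, and 13.9% of its exon sequence lies opposite COL18A1. Of 8 lipid, choline and acetyl-CoA carriers, 2 rose and 2 fell with JQ1 (25% each). I-BET 762 gave 1 rise (12.5%) and 2 falls (25%) among them. Of 4 phosphate, sulfate and dicarboxylate carriers, the phosphate transporter SLC20A2 rose 1.64-fold with JQ1, and its more abundant relative SLC20A1 differed by 0.13 and -0.05. SLC9A3R1, a scaffold protein (NHERF1) and not a transporter, rose 2.05-fold and 1.82-fold.

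Transporters and partners without an SLC number were described from a list of 23 genes, of which 20 had values under the listed name and 16 were tested. With JQ1 4 rose and 3 fell (13.3% and 22.8% of all genes tested rose and fell). I-BET 762 gave 5 rises and 2 falls (8.96% and 17.9% of all genes tested). The phosphate exporter XPR1 rose, with a vehicle mean of 3788 ± 178 (SD, n = 3), a JQ1 mean of 9243 ± 177 (SD, n = 4) and an I-BET 762 mean of 7681 ± 30.6 (SD, n = 3), and the importer SLC20A1 stayed within the fold limit. The lysosomal cholesterol transporter NPC1 rose 1.55-fold and 1.54-fold. SLCO2A1, a prostaglandin transporter, rose from a vehicle mean of 5.57 ± 4.0 (SD, n = 3), and its JQ1 mean was 16.6 ± 1.96 (SD, n = 4) and its I-BET 762 mean 14.8 ± 3.35 (SD, n = 3). SLCO5A1 fell from a vehicle mean of 256 ± 6.85 (SD, n = 3), and its JQ1 mean was 54.1 ± 7.37 (SD, n = 4) and its I-BET 762 mean 130.3 ± 14.3 (SD, n = 3). FLVCR2, a choline and heme transporter, fell 2.72-fold and 1.59-fold. MPC1, a subunit of the mitochondrial pyruvate carrier, and UCP2, an uncoupling protein homolog, rose with I-BET 762 (1.55-fold and 1.58-fold). Both were also higher with JQ1 (1.48-fold and 1.34-fold), under the fold limit. UCP3 fell with JQ1 (1.65-fold) and was 1.18-fold lower with I-BET 762. Between the inhibitors the adjusted p-values by limma were 0.494 for MPC1, 0.022 for UCP2 and 0.158 for UCP3.

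At the matched dose of 5 µM and time of 48 h, JQ1 and I-BET 762 were compared with each other for all 243 members, with p-values adjusted over the 14839 genes tested. Of these members 10 were DEGs between the inhibitors (4.12%; 5.31% of all genes tested), 2 higher (1.73% of all genes tested) and 8 lower (3.59%) with JQ1. With equal library totals 12 were DEGs, and all 12 were lower with JQ1. The libraries of the inhibitors did not overlap for 87 members (33.8% of all genes tested). Without the fold limit, 70 members (28.8%; 27.3% of all genes tested) had an adjusted p-value below 0.05, 35 higher and 35 lower with JQ1. Of 76 members that were DEGs with both inhibitors, 62 were further from vehicle with JQ1, beside 80.3% of all genes that were DEGs with both. The inhibitors themselves differed at an adjusted p-value below 0.05 in 23 of the 76, beside 36.3% of all genes that were DEGs with both. Of these 23 members, 22 were further from vehicle with JQ1, the exception being SLC44A1, beside 96.0% of the corresponding genes.

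Higher with JQ1 were SLC66A3 (log2 difference 0.63, 95% interval 0.50 to 0.76) and SLC6A8 (0.61, 0.46 to 0.75), both just above the fold limit, and both lost the call with equal library totals (log2 0.54 and 0.52). The call of SLC6A8 was also lost without JQ1 replicate 20 or I-BET 762 replicate 22 (log2 0.56 each). Lower with JQ1 were SLC52A1, SLC7A10, SLC15A3, SLC4A10, SLC6A12, SLC12A5, SLC2A12 and SLC4A8. SLC4A10 differed by -0.93 (-1.2 to -0.67, adjusted p = 6.62e-05) and SLC15A3 by -1.01 (-1.35 to -0.67, adjusted p = 0.000332). SLC7A10, an exchanger of small neutral amino acids such as serine and glycine, had counts of 93.9, 95.2 and 98.3 in the vehicle libraries, 13.2, 15.2, 20.01 and 27.4 in the JQ1 libraries and 41.3, 54.1 and 38.4 in the I-BET 762 libraries. Its 3 groups were separate, and the difference between the inhibitors was -1.23 (-1.73 to -0.73).

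SLC4A8, a sodium-driven chloride-bicarbonate exchanger, had counts of 1801, 1759 and 1741 in the vehicle libraries, 1304, 1281, 1362 and 1399 in the JQ1 libraries and 2049.6, 1970 and 2083 in the I-BET 762 libraries. It was the member among these 10 whose JQ1 libraries lay below the vehicle libraries while its I-BET 762 libraries lay above them. Against vehicle the log2 differences were -0.40 with JQ1 (adjusted p = 2.5e-06) and 0.20 with I-BET 762 (adjusted p = 0.00402, 0.142 with equal library totals), neither past the fold limit, and between the inhibitors -0.61 (-0.71 to -0.50). The neuronal potassium-chloride cotransporter SLC12A5 (KCC2) differed by -0.64, and by -0.58, under the limit, without JQ1 replicate 18. The calls of the riboflavin transporter SLC52A1 and of SLC6A12 rested on few reads. SLC52A1 lost it without I-BET 762 replicate 21 (adjusted p = 0.122) and in the fit of the 2 groups compared (0.0586). SLC6A12 lost it without any 1 of the 3 vehicle libraries, JQ1 replicates 19 or 20 or I-BET 762 replicates 21 or 22. Its adjusted p-value reached 0.221 in the last case. The call of SLC6A12 was also lost with limma-voom (adjusted p = 0.0548), with no filter (0.0906) and in the fit of the 2 groups compared (0.0835).

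**Figure D4:**
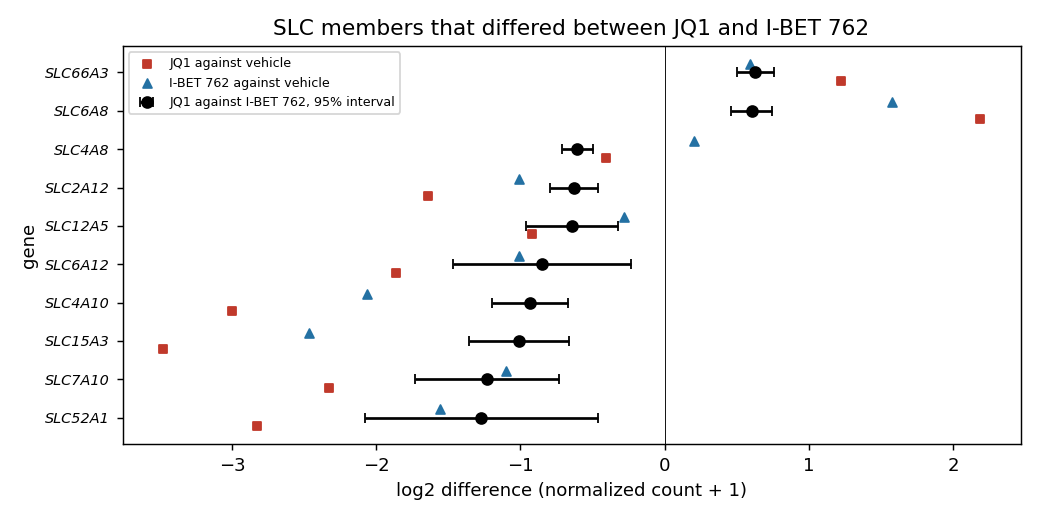
Log2 difference between JQ1 and I-BET 762 (black points with 95% intervals, unadjusted) for the 10 SLC members that were DEGs between them, with the log2 fold change of JQ1 (red squares) and of I-BET 762 (blue triangles) against vehicle beside each. The intervals of all 10 leave out 0, and SLC4A8 has its red and blue symbols on opposite sides of 0.

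For other members the intervals bound how far the compounds could differ. SLC7A11 differed by -0.08 (-0.20 to 0.04), SLC38A1 by -0.05 (-0.14 to 0.05) and SLC39A8 by -0.07 (-0.20 to 0.06), although each fell with both inhibitors. SLC12A4 and SLC25A44, which rose with both, differed by 0.04 (-0.11 to 0.19) and -0.01 (-0.14 to 0.12). The GLUT3 gene SLC2A3 (0.46, 0.36 to 0.56) and the MCT4 gene SLC16A3 (0.55, 0.25 to 0.84) were lower with I-BET 762 than with JQ1, with adjusted p-values of 5.8e-06 and 0.00837 and differences under the fold limit. These intervals reached a median of 0.13 to either side of the estimate for 99 members with a mean of at least 1000 normalized counts and 0.67 for 58 members with a mean under 100, so that a 1.5-fold difference between the compounds was not resolved for most of the latter. When the inhibitors were compared with each other, 15 of the 28 members called with JQ1 alone and 2 of the 7 called with I-BET 762 alone had an adjusted p-value below 0.05. The corresponding shares over all genes were not computed, so these counts do not set the members apart from other genes.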

How the data were processed

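Strand-specific total RNA libraries of SK-UT-1 cells were sequenced on an Illumina NovaSEQ6000. Per the submitters' processing notes and the methods, the authors checked reads with FastQC 0.73, trimmed them with Trimmomatic, aligned them to hg38 with HISAT2 2.2.1, counted them on Gencode V41 genes with featureCounts 2.0.3 and normalized the counts with DESeq2, leaving out samples they judged outliers. For each of 22784 symbols the authors deposited log2(normalized count + 1). Read counts were recovered from the constant step of each library, of which 99.7% to 99.8% of values were whole multiples within 0.01.

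The deposited log2 values of 14839 symbols with at least 10 normalized counts in at least 3 libraries entered 1 linear model of all 10 libraries (R 4.3.3, limma 3.58.1) with an intensity trend and Benjamini-Hochberg adjustment over all symbols tested. DEGs are genes more than 1.5-fold (log2 0.585) apart whose adjusted p-value is below 0.05. Fold changes are on the log2(normalized count + 1) scale, which understates changes of low genes. The fit was also run on simulated counts, with far fewer changed genes than here, equal changes with both inhibitors and the same spread for every gene. Its settings differ from these data, so it does not measure the error of the calls. Tables and figures used Python 3.11.15, pandas 2.3.3, numpy 2.4.6 and matplotlib 3.10.9. Genes, exon lengths and overlaps are those of Gencode v44 on hg38, to which all 243 members were matched. Genes sharing sequence were found from exact copies of 75-base stretches.

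The members, substrate groups and gene lists were chosen with earlier results of these data known. Genes named are the 10 largest rises and 10 largest falls shared by both inhibitors with all treated libraries on one side of vehicle, the DEGs between the inhibitors, a list of 33 well-known carriers, the most abundant member of each substrate group and a list of 23 partners, and other members named in the text were chosen after their values were seen. Some of the listed genes are not reported here. Alternatives were pseudocounts of 0.5 and 5, no filter, a mean of at least 100, equal totals, equal upper quartiles, no trend, fold limits of 2 or none, a fit of the 2 groups compared, limma-voom with TMM on the recovered reads, and leaving out each library. Depth sets the precision, and at these depths 3 reads, the limit of a count of 0, equal 2.73 to 3.30 normalized counts.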

Additional observations from a re-analysis of the deposited data

Results flagged for a closer look

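In the JQ1 group, the only group of 4 libraries, 1 library stood apart from the other 3 for 4 of 65 SLC members examined, where chance alone flags about 5% of groups. SLC25A3, the mitochondrial phosphate carrier, had 25566 normalized counts in JQ1 replicate 18 and 22786 to 23120 in the others. The iron exporter SLC40A1 had 146 in JQ1 replicate 18 and 90.3 to 98.0 in the others. SLC44A2, a choline transporter-like protein, had 1734 in JQ1 replicate 20 and 1485 to 1490.0 in the others. The taurine transporter SLC6A6 had 1169.6 in JQ1 replicate 18, under the 1341 to 1367 of the others.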

How the results depend on the processing

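The number of SLC DEGs moved by more than 1.5 times with 3 choices. A mean normalized count of at least 100 left 67 DEGs with JQ1, 51 with I-BET 762 and 6 between the inhibitors, from fewer members tested. Without a fold threshold the counts were 192, 165 and 70, and with a fold change over 2 they were 54, 45 and 3. Leaving out each library gave 101 to 105, 72 to 83 and 8 to 13. Among 2900 values of 140 results for single genes, 2761 kept their direction and side of the threshold, 59 fell under it, 50 rose over it and 30 changed sign. The cause was not tested. No value that changed sign belonged to a DEG of that comparison. With equal library totals the log2 values with JQ1 were -0.0527 for SLC20A1, -0.0403 for SLC25A5 and -0.147 for SLC30A1, and with I-BET 762 -0.0325 for SLC25A3, -0.096 for SLC25A5, -0.0612 for SLC30A1, -0.0798 for SLC38A2, -0.0521 for SLC4A2 and -0.0534 for SLC6A6. Equal upper quartiles gave -0.026 for SLC30A1 with JQ1 and, with I-BET 762, -0.036 for SLC25A5, -0.00121 for SLC30A1 and -0.0198 for SLC38A2. Limma-voom gave 0.000871 for SLC3A2 with I-BET 762. Leaving out each library in turn gave ranges across 0 for SLC16A3 (-0.206 to 0.0446), SLC25A6 (-0.00359 to 0.32) and SLC30A1 (-0.0111 to 0.0705) with JQ1, and for SLC1A3 (-0.239 to 0.278), SLC25A5 (-0.0317 to 0.0303), SLC30A1 (-0.0143 to 0.0821), SLC38A2 (-0.00428 to 0.0339), SLC3A2 (-0.032 to 0.0189) and SLC6A6 (-0.00403 to 0.0859) with I-BET 762. The edgeR alternative was not run, and limma-voom was the test on the recovered reads. No paired analysis was possible because the replicate numbers 13 to 24 differ in every group. Depth limits members with few reads, for which a 1.5-fold difference was often within the 95% interval.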
